A study of Homo sapiens with 6 samples.

Results

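The genes described here encode lysosomal hydrolases, lysosomal membrane proteins, the vacuolar proton pump V-ATPase and the TFEB family of transcription factors. They are 55 of the 58735 genes in the expression table and were taken by gene symbol from a fixed list. The list was drawn up with the siPSCA against NC differences of these same libraries in view. The members were therefore selected on the values that are compared below, which are given as a description with no test of the members. The RNA came from HCT116SCs, the CD44+CD326+ cells sorted with magnetic beads from the human colorectal cancer line HCT116 and grown as spheres in serum-free DMEM/F12 with B27 and with EGF and bFGF at 20 ng/mL each. One group received NC siRNA, a negative control (3 libraries), and the other siPSCA, a small interfering RNA against the gene of prostate stem cell antigen (3 libraries). All cells were harvested 48 h after transfection, and no group was left untransfected. The sequence of the siPSCA used for sequencing is not given in the sources used here. The titles of siPSCA 2 and siPSCA 3 write HCT117 and HCT118, whereas their other labels write HCT116. No source says that the libraries came from separate cultures, so the standard errors and p-values measure the spread between these libraries, which may be technical.

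Lysosomes are acidic organelles in which cathepsins and other proteases, glycosidases, sulfatases and lipid hydrolases break down macromolecules delivered by endocytosis and autophagy. The V-ATPase acidifies them. Its membrane sector V0 carries protons and its cytosolic sector V1 hydrolyses ATP. Many genes of both kinds share an E-box element near their start sites, which TFEB, TFE3 and MITF can bind when they enter the nucleus, a step that mTORC1 on the lysosomal surface holds back by phosphorylating them.

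The promoter letters of 8 members are shown first. They are the members with this element that were called higher in siPSCA, as defined below. CD63, ARSB and NEU1 also hold it and were not called, and CTSF and CLN3 hold it and were not tested. These 5 are not shown. Because the lines were picked by the calls, nothing is read from them about the fold changes. The windows come from RefSeq promoter entries on GRCh38.p14, each covering 250 bases before and 50 bases after a start site. Entries were matched by symbol for 39 of the 55 members. LGMN, LAMP2, CTSB, ARSA, ATP6V1A, ATP6V0E1, ATP6V1C1, NAGLU, HEXA, ATP6V1H, PSAP, SGSH, ASAH1, CTSS, ATP6V1B2 and MANBA were not matched. Capitals mark the 6-letter E-box CACGTG, which reads the same on both strands. Where a t stands before it and an a after it, it lies inside the 8-letter motif TCACGTGA, also the same on both strands. Each line is written 5′ to 3′ on the strand of the gene, and only bases before the start site are shown.
LAMP1, chr13:113297032-113297231, plus strand: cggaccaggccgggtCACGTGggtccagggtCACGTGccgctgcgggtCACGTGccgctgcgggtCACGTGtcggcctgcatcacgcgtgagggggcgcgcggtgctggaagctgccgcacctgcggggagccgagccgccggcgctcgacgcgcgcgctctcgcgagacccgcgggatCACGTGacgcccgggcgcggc
CTSA, chr20:45891278-45891330, plus strand: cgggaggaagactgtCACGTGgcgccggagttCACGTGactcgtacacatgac
MCOLN1, chr19:7522568-7522623, plus strand: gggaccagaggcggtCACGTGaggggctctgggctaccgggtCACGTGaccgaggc
GAA, chr17:80101490-80101570, plus strand: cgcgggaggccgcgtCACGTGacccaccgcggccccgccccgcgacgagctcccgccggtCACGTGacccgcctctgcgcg
CTSD, chr11:1763954-1763989, minus strand: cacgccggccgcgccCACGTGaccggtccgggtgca
ATP6V0D1, chr16:67481196-67481231, minus strand: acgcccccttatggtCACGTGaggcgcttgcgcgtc
PLBD2, chr12:113358548-113358583, plus strand: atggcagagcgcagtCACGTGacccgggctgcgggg
ATP6V0B, chr1:43974888-43974941, plus strand: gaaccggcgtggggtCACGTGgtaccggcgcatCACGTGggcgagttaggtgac

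The table gives FPKM, the reads on a gene scaled by the length of its exons and by the size of the library. Between 16099716 and 17302219 reads lay on genes in each library, and 1 read on a gene of 1 kilobase was worth an FPKM of 0.0549 to 0.0595. NC 3 stood apart within its group. Its root mean square log2 difference was 0.410 from NC 1 and 0.390 from NC 2, which differed from each other by 0.268, and siPSCA libraries differed from each other by 0.254 to 0.268. Values without NC 3 are therefore given beside the main ones. The targeted gene PSCA had 4 to 15 reads in NC and 7 to 9 in siPSCA, so its reads overlap and do not check the labels. The 6 epithelial and sort markers (EPCAM, CD44, KRT8, KRT18, KRT19 and CDH1) summed to 805 to 866 FPKM in NC and 857 to 886 in siPSCA. Among them CD44 and CDH1 were called lower, with log2 fold changes of -0.44 and -0.60, also after GC correction and without NC 3. KRT8 and KRT19 were called higher, at 0.22 and 0.25, but not after GC correction. KRT18 was not called, at -0.14, and was called lower, at -0.44, after GC correction. The part of these markers in the results was not tested. Of 8 markers of immune, stromal and endothelial cells, 7 lay under 1 FPKM in both groups, and COL1A1 lay between 3.35 and 6.51 FPKM in the libraries.

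Most tested lysosomal members had more RNA in siPSCA than in NC, and CTSD, the aspartic protease cathepsin D, had the largest difference. Of the 55 members, 51 had a mean FPKM of at least 1 and entered limma's linear model on log2(FPKM + 1). A gene was called when its p-value, adjusted over 13796 genes (Benjamini-Hochberg), was under 0.05. In siPSCA 28 members were called higher and 5 lower (CTSB, MANBA, IDS, GM2A and ATP6V1C1), and 18 were not called. ATP6V0C, among the 28, and TFEB, among the 18, had a mean under 1 FPKM in NC. Both passed the FPKM minimum only through the siPSCA libraries, and the counts and medians below hold them unless stated. Over all tested genes 50.7% were called, 26.6% higher and 24.2% lower. Nothing is read from the members' count against this share, because the members were chosen on this contrast. The median log2 fold change was 0.23 over the tested members and 0.01 over all tested genes, and the members ranged from -0.78 (IDS) to 1.91 (CTSD). The FPKM values of the groups did not overlap for 43 of the 51, and over all tested genes they did not overlap for 64.5%. The libraries hold RNA of whole cultures, in which fewer cells of a kind and less RNA per cell cannot be told apart.

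**Figure D1:**
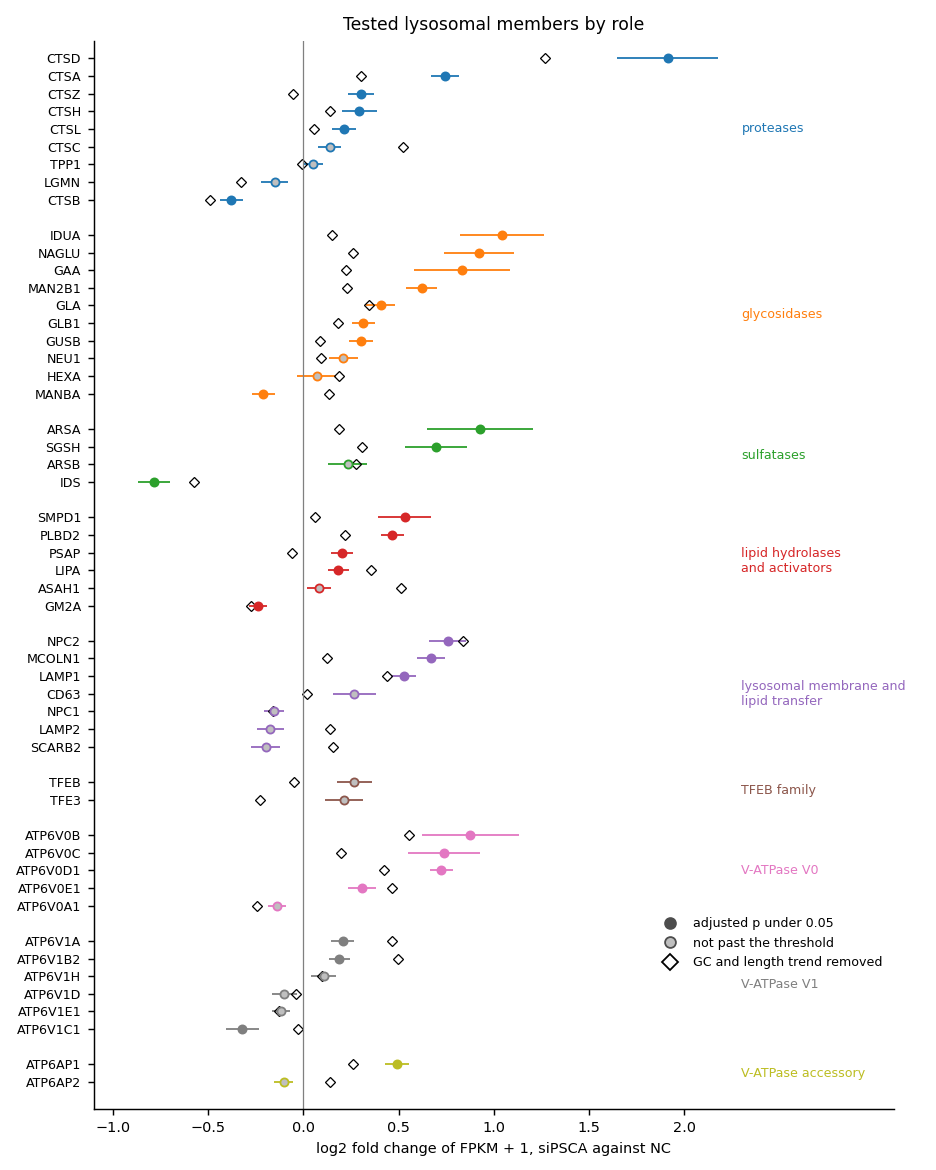
Log2 fold change of FPKM + 1 in siPSCA against NC for the 51 tested members, ordered by role, with bars for the standard error, filled circles for called members and grey ones for the others. Open diamonds give the same value after a correction for GC content and gene length. CTSD at 1.91 lies farthest to the right and IDS at -0.78 farthest to the left.

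The fold changes of the members followed the GC content of their transcripts, as those of all genes did. Across the 51 members the 2 quantities had a Spearman correlation of 0.74, and across 13792 tested genes of 0.66. Genes are not independent and share the same 6 libraries, so no p is given. The 17 members with a GC content of at least 55% had a median log2 fold change of 0.72, where all tested genes of this GC content had a median of 0.45. The 21 members from 45% to 55% had a median of 0.20, against 0.05 for all genes of that range. The 13 members under 45% had a median of 0.08, against -0.25. Since the members were chosen on this contrast, nothing is read from their medians against those of all genes. A GC correction was then made, in which each library was freed of its trend over GC content and gene length. After GC correction 19 members were called higher and 8 lower, with a median of 0.15, while 39.6% of all tested genes were called, 21.2% higher and 18.4% lower, with a median of 0.02. Both ways, 16 members were called higher and 3 lower (CTSB, IDS and GM2A), and 0 were called in opposite directions. The correlation with GC content was then -0.05 over the members. NC 3 differed from NC 1 and NC 2 along GC content (Spearman correlation -0.56 across genes), and it was the lowest of the 6 libraries for 24 members. Without it, 28 members were called higher and 6 lower, with a median of 0.25, and 53.8% of all tested genes were called, 29.1% higher and 24.7% lower. The scale mattered for the split as well, since with TPM 23 members were called higher and 8 lower, and with quantile normalization 24 and 11. Of all 13796 tested genes, 3302 were called higher and 3480 lower with TPM, and 3434 and 3578 with quantile normalization. The part of GC content in the differences between the groups was not tested.

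**Figure D2:**
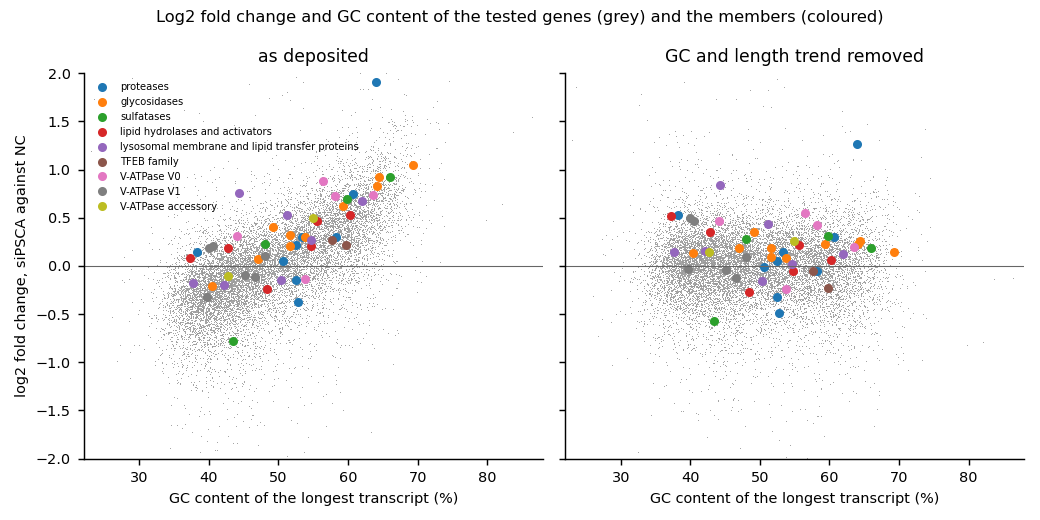
Log2 fold change of siPSCA against NC over the GC content of the longest transcript for the tested genes (grey) and the tested members (coloured by role), with the deposited values on the left and those after GC correction on the right. The cloud climbs from left to right in the first panel, with a correlation of 0.66, and is level in the second. On an axis from -2 to 2, 21 genes on the left and 22 on the right lie outside.

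Library by library, the siPSCA samples lay close together. The median over the members of the log2 difference from the NC mean was 0.01, 0.02 and -0.04 in NC 1, NC 2 and NC 3 and 0.25, 0.24 and 0.22 in siPSCA 1, siPSCA 2 and siPSCA 3. Of the 33 members called, 17 were also called in every one of the 6 fits that each left out a library, 14 of them higher and 3 lower (CTSB, IDS and GM2A). Over all tested genes 31.1% were called in this way, 15.7% higher and 15.4% lower. Nothing is read from the members' count against these shares. Among these 14, CTSA, CTSD, GLA, GLB1, MAN2B1, NAGLU, PLBD2, LAMP1, NPC2, ATP6V0D1 and ATP6AP1 were also called higher after GC correction, which makes 11. The other 16 called members were called in fewer than 6 of these fits. CTSH, CTSL, LIPA and ATP6V1B2 were called in only 1 of them, and MANBA, PSAP and ATP6V1A in only 2.

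Among the proteases, 9 of 11 were tested, 5 were called higher and 1 lower. CTSZ, the carboxypeptidase cathepsin Z, had the highest NC level of the group, with 32.4, 35.0 and 37.2 FPKM in NC and 44.6, 44.1 and 40.8 FPKM in siPSCA. Its groups did not overlap, and its log2 fold change of 0.30 ± 0.07 (SE) became -0.05 after GC correction. CTSD (chromosome 11, 1752752 to 1764573, minus strand) had 5.12, 4.59 and 2.08 FPKM in NC and 19.0, 16.9 and 14.7 FPKM in siPSCA, from 112 to 269 reads and 840 to 1003 reads. Every siPSCA library lay far above every NC library, and NC 3 was the lowest of all. The mean FPKM of CTSD in NC was 3.93 ± 1.62 and in siPSCA 16.9 ± 2.11 (SD, n = 3 per group). Its log2 fold change was 1.91 ± 0.26 (SE), 1.60 without NC 3 and 1.27 after GC correction. In the annotation, 41.7% of the exonic bases of CTSD are shared with the gene model AC068580.4 on the same strand, which held 13 reads over the 6 libraries against 3414 for CTSD. The sources used here do not say how reads on shared bases were counted. The level of CTSD and its fold change are uncertain for this reason, and the low count of AC068580.4 does not settle it.

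CTSB, the cysteine protease cathepsin B, went the other way. It had 20.2, 21.4 and 22.7 FPKM in NC and 17.0, 15.8 and 16.1 FPKM in siPSCA, and all siPSCA libraries lay under all NC libraries. Its log2 fold change was -0.38 ± 0.06 (SE) and -0.49 after GC correction. CTSA, or protective protein, a carboxypeptidase that also stabilises a sialidase and a galactosidase in the lysosome, rose from 9.46 ± 0.941 to 16.5 ± 0.494 FPKM (SD, n = 3 per group), a log2 fold change of 0.74 and of 0.30 after GC correction. CTSH and CTSL, an aminopeptidase and an endopeptidase, rose by 0.29 and 0.22 on the log2 scale, and neither was called after GC correction. CTSH was also not called without NC 3, at 0.25, and was called in only 1 of the 6 fits that each left out a library. CTSC, which activates serine proteases of granules, was not called at 0.14 and was called higher, at 0.52, after GC correction. LGMN, an asparaginyl endopeptidase, and TPP1, a tripeptidyl peptidase, were not called, with log2 fold changes of -0.15 and 0.05. After GC correction LGMN was called lower, at -0.33.

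Glycosidases were tested for all 10 members, of which 7 were called higher and 1 lower. GAA, the acid alpha-glucosidase that degrades glycogen, was the most abundant, with 27.4, 26.7 and 13.8 FPKM in NC and 40.8, 40.3 and 37.0 FPKM in siPSCA. NC 3 lay far under NC 1 and NC 2, and all siPSCA libraries lay above all NC libraries. The log2 fold change of GAA was 0.83 ± 0.25 (SE), 0.52 without NC 3 and 0.22 after GC correction, where it was not called. IDUA, the iduronidase of heparan and dermatan sulfate, had 4.66, 4.52 and 2.22 FPKM in NC and 8.59, 8.95 and 8.23 FPKM in siPSCA. Its groups were clearly apart, but its transcripts have the highest GC content of all members (69.3%), and its log2 fold change went from 1.04 ± 0.22 (SE) to 0.15 after GC correction. MANBA, the beta-mannosidase, had 4.70, 4.60 and 4.71 FPKM in NC and 3.67, 3.91 and 4.13 FPKM in siPSCA. The siPSCA values lay under those of NC, and the log2 fold change of -0.21 ± 0.06 (SE) turned to 0.13 after GC correction.

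NAGLU, another enzyme of heparan sulfate degradation, rose from 2.88 ± 0.967 to 6.19 ± 0.160 FPKM (SD, n = 3 per group), a log2 fold change of 0.92, and MAN2B1, the alpha-mannosidase, rose by 0.62 on the log2 scale. Both were still called higher after GC correction, at 0.26 and 0.23, as were GLA, the alpha-galactosidase of glycosphingolipids (0.41, then 0.35), and GLB1, the beta-galactosidase (0.32, then 0.18). GUSB, the beta-glucuronidase, rose by 0.30 and was not called at 0.09 after GC correction. The sialidase NEU1 and the hexosaminidase subunit HEXA were not called, with log2 fold changes of 0.21 and 0.07.

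The 4 sulfatases went in both directions, with 2 called higher and 1 lower. IDS (chromosome X, 149476990 to 149521096, minus strand), the iduronate sulfatase, had 11.6, 11.8 and 14.1 FPKM in NC and 6.53, 6.90 and 7.03 FPKM in siPSCA. All siPSCA libraries lay well under all NC libraries. The mean was 12.5 ± 1.39 against 6.82 ± 0.258 FPKM (SD, n = 3 per group), the log2 fold change -0.78 ± 0.08 (SE), -0.70 without NC 3 and -0.57 after GC correction. ARSA, the arylsulfatase of sulfatides, had 3.27, 3.80 and 1.25 FPKM in NC and 5.46, 5.85 and 6.12 FPKM in siPSCA. The groups did not overlap and NC 3 was again the lowest, and the log2 fold change of 0.93 ± 0.28 (SE) was 0.59 without NC 3 and 0.19, not called, after GC correction. SGSH, the heparan sulfamidase, rose by 0.70 on the log2 scale and was still called at 0.31 after GC correction, while ARSB, which acts on dermatan and chondroitin sulfate, was not called at 0.23.

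Of the 6 lipid hydrolases and activators, 4 were called higher and 1 lower. PSAP, the precursor of the saposins that present sphingolipids to hydrolases, was the most abundant of all members, with 232, 229 and 206 FPKM in NC and 260, 253 and 254 FPKM in siPSCA. The groups did not overlap, yet the log2 fold change of 0.20 ± 0.06 (SE) was -0.06 after GC correction. SMPD1, the acid sphingomyelinase, had 2.51, 2.40 and 1.50 FPKM in NC and 3.46, 3.56 and 3.43 FPKM in siPSCA. All siPSCA libraries were higher, by a log2 fold change of 0.53 ± 0.14 (SE), which was 0.38 without NC 3 and 0.06 after GC correction. GM2A, the activator protein for GM2 ganglioside, had 14.5, 14.2 and 14.9 FPKM in NC and 12.0, 12.5 and 12.1 FPKM in siPSCA. It was lower in each siPSCA library, with a log2 fold change of -0.24 ± 0.05 (SE) and of -0.27 after GC correction. PLBD2, a phospholipase B-like protein, and LIPA, the acid lipase of cholesteryl esters, rose by 0.47 and 0.18 and were called both ways. LIPA was called in only 1 of the 6 fits that each left out a library, and PLBD2 in all 6. ASAH1, the acid ceramidase, had a log2 fold change of 0.08 and was called higher, at 0.51, only after GC correction.

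In the group of membrane and lipid transfer proteins, 7 of 8 were tested, 3 were called higher and 0 lower. CD63, a tetraspanin of late endosomes and lysosomes, had the highest NC level, with 57.5, 59.5 and 74.6 FPKM in NC and 82.0, 78.1 and 70.1 FPKM in siPSCA. The groups overlapped through NC 3 and siPSCA 3, and CD63 was not called at 0.27 ± 0.11 (SE). Without NC 3 it was called higher, at 0.38, and after GC correction it was not called, at 0.02. NPC2 (chromosome 14, 74476192 to 74494177, minus strand), the soluble carrier that hands cholesterol to NPC1, had 9.29, 8.61 and 7.09 FPKM in NC and 15.3, 14.9 and 13.9 FPKM in siPSCA. It was higher in every siPSCA library, with a log2 fold change of 0.76 ± 0.10 (SE), 0.66 without NC 3 and 0.84 after GC correction, and its GC content was 44.3%. SCARB2, the receptor that carries glucocerebrosidase to lysosomes, had 7.76, 7.80 and 9.24 FPKM in NC and 7.01, 6.99 and 7.19 FPKM in siPSCA. Its groups did not overlap, its log2 fold change was -0.20 ± 0.07 (SE), not called, and it was called higher, at 0.16, after GC correction.

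LAMP1, a heavily glycosylated protein of the lysosomal membrane, rose from 36.2 ± 2.82 to 52.5 ± 1.18 FPKM (SD, n = 3 per group), a log2 fold change of 0.53 and of 0.44 after GC correction. Its relative LAMP2 had 16.6 ± 0.645 and 14.6 ± 1.19 FPKM (SD, n = 3 per group) and was not called at -0.17. MCOLN1, the calcium channel mucolipin 1, rose from 2.52 ± 0.125 to 4.60 ± 0.357 FPKM (SD, n = 3 per group), a log2 fold change of 0.67, and was not called at 0.13 after GC correction. NPC1, the membrane partner of NPC2, had a log2 fold change of -0.15 and was called lower, at -0.16, only after GC correction or, at -0.19, without NC 3.

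Neither tested member of the TFEB family was called. TFE3 had 10.1, 10.9 and 8.28 FPKM in NC and 10.8, 12.0 and 11.4 FPKM in siPSCA, groups that overlapped. Its log2 fold change was 0.21 ± 0.10 (SE) and 0.11 without NC 3, and it was called lower, at -0.23, after GC correction. TFEB had 0.917, 1.07 and 0.904 FPKM in NC and 1.40, 1.38 and 1.30 FPKM in siPSCA, from 87 to 139 reads. The groups did not overlap, the log2 fold change was 0.27 ± 0.09 (SE), and it was -0.05 after GC correction. MITF lay between 0.0720 and 0.168 FPKM and was not tested.

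V-ATPase members are given by sector. In V0, 4 of 5 members were called higher and 0 lower, with a median log2 fold change of 0.72. One of these, ATP6V0C, passed the FPKM minimum through the siPSCA libraries, and without it 3 of 4 were called higher, with a median of 0.52. In V1, 2 of 6 were called higher and 1 lower, with a median of 0.00. After GC correction these medians were 0.42 and 0.03. The summed level of the V0 members was 64.5, 61.8 and 52.9 FPKM in NC and 86.3, 78.3 and 82.7 FPKM in siPSCA, while that of the V1 members was 105.1, 107.6 and 115.6 FPKM in NC and 106.6, 102.7 and 108.7 FPKM in siPSCA. The V0 sums did not overlap between the groups and the V1 sums of these 6 members did. This turned on which subunits were listed. Over all 10 tested V1 genes the sum was 187.3, 195.9 and 192.2 FPKM in NC and 228.6, 228.7 and 226.7 FPKM in siPSCA, with no overlap, and 4 were called higher and 2 lower. Over all 9 tested V0 genes it was 80.9, 76.3 and 63.1 FPKM in NC and 109.6, 101.7 and 104.7 FPKM in siPSCA, with 7 called higher, among them ATP6V0C, and 0 lower. The median log2 fold change was 0.72 over these 9 V0 genes and 0.11 over the 10 V1 genes. After GC correction these 2 medians were 0.22 and 0.16. The median GC content was 56.5% for the V0 members and 42.9% for the V1 members, and no difference between the sectors was tested.

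**Figure D3:**
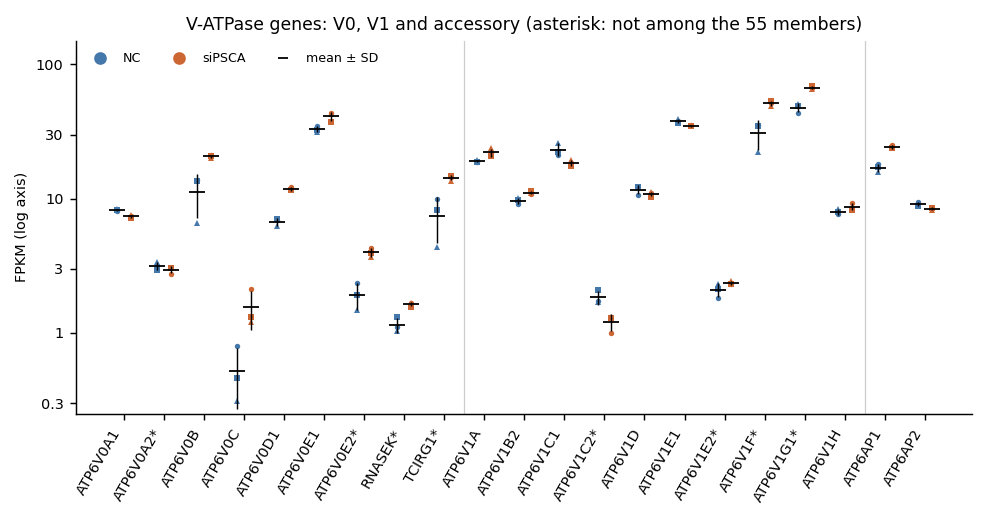
FPKM of the 21 tested V-ATPase genes on a log axis, V0 on the left, V1 in the middle and accessory subunits on the right, with points for the libraries (circle 1, square 2, triangle 3) and black marks for the mean ± SD of n = 3. Genes with an asterisk are not among the 55 members. ATP6V0B, ATP6V0D1 and ATP6AP1 lie higher in siPSCA in every library and ATP6V1C1 lies lower.

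ATP6V0E1, a small V0 subunit, had the highest NC level of its sector, with 34.8, 32.7 and 31.4 FPKM in NC and 43.6, 37.4 and 42.3 FPKM in siPSCA. It was higher in every siPSCA library, with a log2 fold change of 0.31 ± 0.07 (SE) and of 0.47 after GC correction. ATP6V0B, a subunit of the proteolipid ring, had 13.9, 13.5 and 6.58 FPKM in NC and 21.0, 20.7 and 20.1 FPKM in siPSCA. NC 3 held less than NC 1 and NC 2, and the log2 fold change of 0.88 ± 0.26 (SE) was 0.56 without it, still called, and 0.55 after GC correction, not called. ATP6V0A1, a form of the large a subunit, had 8.09, 8.23 and 8.36 FPKM in NC and 7.40, 7.24 and 7.55 FPKM in siPSCA. It lay lower in every siPSCA library but was not called at -0.14 ± 0.05 (SE), and was called lower at -0.24 after GC correction. ATP6V0D1, the d subunit that joins V0 to the central stalk, rose from 6.73 ± 0.421 to 11.8 ± 0.374 FPKM (SD, n = 3 per group), a log2 fold change of 0.72, and of 0.42, still called, after GC correction. ATP6V0C, the main proteolipid, had 0.522 ± 0.248 and 1.55 ± 0.504 FPKM (SD, n = 3 per group) and a log2 fold change of 0.74. It held 20, 12 and 8 reads in NC and 54, 35 and 33 in siPSCA. Its level in both groups and its fold change are uncertain, because 57.5% of its exonic bases are shared with the gene model AC093525.2. ATP6V0C was not called at 0.20 after GC correction.

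In V1, ATP6V1E1 of the peripheral stalks was the most abundant member, with 37.7, 36.6 and 39.5 FPKM in NC and 35.4, 34.5 and 34.8 FPKM in siPSCA. Its siPSCA values lay under those of NC by a log2 fold change of -0.12 ± 0.05 (SE), which was not called, and was called lower, again at -0.12, after GC correction. ATP6V1A, the catalytic subunit that binds ATP, had 18.9, 18.8 and 19.3 FPKM in NC and 21.7, 20.8 and 23.8 FPKM in siPSCA. It was higher in every siPSCA library, with a log2 fold change of 0.21 ± 0.06 (SE) and of 0.46 after GC correction. ATP6V1C1, the C subunit that links the sectors and leaves when the pump comes apart, had 21.2, 22.3 and 26.2 FPKM in NC and 18.3, 17.4 and 19.3 FPKM in siPSCA. It lay lower in every siPSCA library, with a log2 fold change of -0.32 ± 0.09 (SE), which was -0.23 without NC 3 and -0.03, not called, after GC correction. ATP6V1B2, which forms the head of V1 with ATP6V1A, rose by 0.19 and by 0.50 after GC correction. ATP6V1D and ATP6V1H were not called, at -0.10 and 0.11.

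Of the accessory subunits, ATP6AP1, which takes part in the assembly of the pump, had 18.1, 17.2 and 15.7 FPKM in NC and 25.2, 23.9 and 23.8 FPKM in siPSCA. All siPSCA libraries were higher, with a log2 fold change of 0.49 ± 0.06 (SE) and of 0.26, still called, after GC correction. ATP6AP2, also known as the prorenin receptor, had 9.46, 8.79 and 9.14 FPKM in NC and 8.48, 8.58 and 8.23 FPKM in siPSCA. Its groups did not overlap and it was not called, at -0.10 ± 0.05 (SE).

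**Figure D4:**
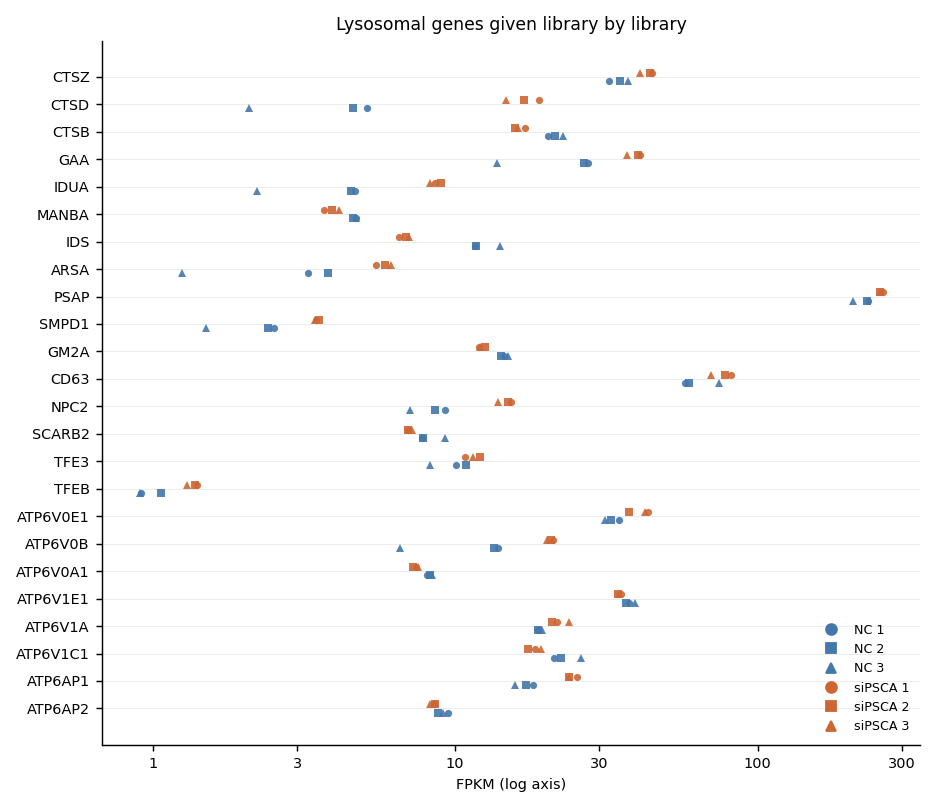
FPKM on a log axis of the members given library by library, with blue points for NC and orange points for siPSCA and 1 marker shape for each library number. NC 3 (blue triangle) lies under NC 1 and NC 2 for CTSD, GAA, IDUA, ARSA, SMPD1 and ATP6V0B, and all siPSCA points of CTSD lie between 14.7 and 19.0.

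The remaining 4 members lay under the FPKM minimum and were not tested. CTSF had 0 reads in every library, which allows an FPKM of up to 0.0616 in the library with the highest limit, at 3 reads and for counting error only. CTSS, a cathepsin of antigen-presenting cells, had 18, 17 and 22 reads in NC and 1, 7 and 14 reads in siPSCA, which is 0.262 ± 0.0364 and 0.0963 ± 0.0839 FPKM (SD, n = 3 per group). CLN3 had 33 to 37 reads in NC and 39 to 47 in siPSCA. Its level is uncertain, because 25.2% of its exonic bases are shared with another gene model. Shared exonic bases also reached 17.7% for CTSA, 16.5% for IDS and 13.4% for IDUA, and the sources used here do not state whether reads were counted by strand.

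Promoter E-boxes were counted in the matched members and in all genes with an entry. The 6-letter E-box lay in the promoter window of 13 of the 39 matched members (33.3%), of 8.77% of all 27305 genes with an entry and of 12.9% of the tested genes with one. The 8-letter motif lay in 7 members (17.9%), 1.18% of all genes and 2.31% of tested genes. LAMP1 had 6 E-boxes, the first at -192 and the last at -1 from the start site, and the last runs over the start and is not in the line shown above. The list of members was drawn up with the siPSCA against NC differences in view, and lysosomal genes are known for this element. These shares therefore describe the list.

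The 11 tested members with an E-box had 8 called higher and 0 lower, a median log2 fold change of 0.67 and a positive value in all 11. The 25 tested members with a promoter entry and no E-box had 13 called higher and 2 lower and a median of 0.22. The median GC content of the genes was 56.5% in the first set and 51.6% in the second. After GC correction the medians were 0.28 and 0.09, with 5 higher and 0 lower in the first set and 8 higher and 6 lower in the second. All 6 tested members with the 8-letter motif (PLBD2, LAMP1, ATP6V0D1, GAA, MCOLN1 and CTSA) were called higher, and 4 of them after GC correction. Over all tested genes, 76 of 210 with the 8-letter motif were called higher and 57 lower, and 411 of 1172 with the 6-letter E-box were called higher and 282 lower. After GC correction, 58 of these 210 were called higher and 39 lower, and 310 of these 1172 higher and 219 lower. Of the tested other lysosomal genes described below, 10 of 12 with the 8-letter motif and 20 of 26 with the 6-letter E-box were called higher. Without these letters it was 36 of 85 and 26 of 71. Of those with them, 7 of 12 and 12 of 26 were called higher after GC correction. Their median GC content was 54.3% with the 6-letter E-box and 48.6% without it. Their median log2 fold changes of 0.44 and 0.11 became 0.17 and 0.11 after GC correction. Over all tested genes with an entry, the median log2 fold change was 0.07 for 1172 genes with the 6-letter E-box and 0.03 for 7926 genes without it. The medians were 0.05 for 210 genes with the 8-letter motif and 0.03 for the rest. Differences between genes with and without these letters were not tested, for the members or for the other lysosomal genes. A match shows the letters only, not that a factor binds there.

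**Figure D5:**
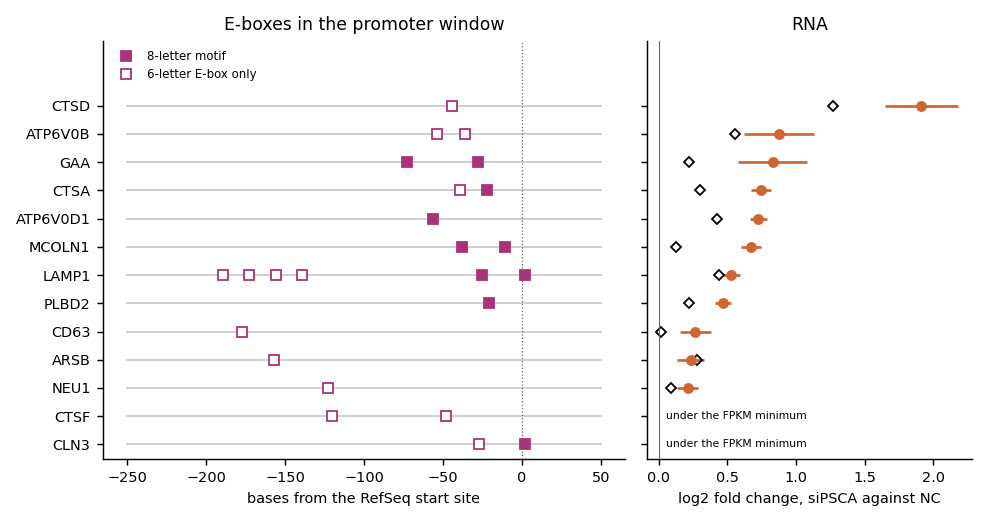
Positions of E-boxes in the RefSeq promoter windows of the 13 members that hold one, in bases from the start site (filled squares lie in the 8-letter motif), beside the log2 fold change of the gene in siPSCA against NC with its standard error (circles) and after GC correction (diamonds). The order is by log2 fold change, from CTSD at 1.91 to NEU1 at 0.21, and CTSF and CLN3 were not tested.

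Other genes of the lysosome, 137 in 6 lists, were examined beside the members. Of these, 122 were tested, 57 were called higher and 20 lower, with a median log2 fold change of 0.16. After GC correction 42 were called higher and 12 lower, and without NC 3 54 and 18. Over all tested genes 26.6% were called higher and 24.2% lower. These shares were 21.2% and 18.4% after GC correction, and 29.1% and 24.7% without NC 3. The lists were also chosen with earlier results of these data known. Nothing is therefore read from their counts, here or below, against these shares. The adjusted p-values that follow are from limma over all tested genes.

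Of 31 tested other hydrolases, 13 rose and 3 fell. DPP7, a dipeptidyl peptidase, rose from 18.9 ± 5.05 to 36.0 ± 2.91 FPKM (SD, n = 3 per group), a log2 fold change of 0.93 (adjusted p = 0.0103, limma), which was 0.17 and still called after GC correction. HYAL2 and ACP2, a hyaluronidase and an acid phosphatase, rose by 0.80 and 0.79. CTSK, a collagen-degrading cathepsin, and CTBS, a chitobiase, fell by 0.60 and 0.32 on the log2 scale, and neither was called after GC correction, at -0.55 and -0.01. CTBS shares 25.3% of its exonic bases with SPATA1 on the other strand, which held 203 reads against 1370. Of 27 other membrane proteins, 10 rose and 7 fell. TMEM175, a lysosomal ion channel, CLCN7, the chloride-proton exchanger, and GLMP, a glycosylated membrane protein, had log2 fold changes of 0.81, 0.77 and 0.70, of which GLMP alone was called after GC correction, at 0.38. MCOLN3, a relative of MCOLN1, fell from 5.98 ± 0.318 to 3.26 ± 0.227 FPKM (SD, n = 3 per group), a log2 fold change of -0.71 (adjusted p = 0.00105, limma) and of -0.47 after GC correction, whereas MCOLN1 had risen. OSTM1, the partner of CLCN7, fell by 0.66 on the log2 scale and was not called after GC correction, at -0.34, and TMEM106B fell by 0.60 and was called both ways.

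Among the 8 tested V-ATPase subunits outside the list, 5 rose and 1 fell. TCIRG1, another form of the a subunit, had 9.87, 8.27 and 4.33 FPKM in NC and 14.5, 14.8 and 13.6 FPKM in siPSCA. All siPSCA libraries were higher, with a log2 fold change of 0.92 (adjusted p = 0.0254, limma) that was 0.61 without NC 3 and 0.22, not called, after GC correction. ATP6V0E2 and ATP6V1F rose by 0.78 and 0.75 and were called both ways, at 0.88 and 0.65 after GC correction. ATP6V1C2, the relative of ATP6V1C1, fell by 0.37 on the log2 scale and was not called after GC correction, at -0.32. It shares 29.7% of its exonic bases with PDIA6 on the other strand. Over the 6 libraries PDIA6 held 23361 reads against 552 for ATP6V1C2, whose level and fold change are uncertain for this reason. Over the 21 tested V-ATPase genes, members and others, 12 were called higher, among them ATP6V0C, and 2 lower, and 8 were higher both ways.

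Of 19 genes that sort enzymes to lysosomes, 12 rose and 3 fell. The adaptor subunits AP1B1, AP1S1 and AP1M1 rose by 0.79, 0.63 and 0.63 and were called higher after GC correction as well, and AP3S1 fell by 0.40, while AP3B1 and AP1G1, which fell by 0.30 and 0.20, turned to 0.03 and 0.06. The 22 tested genes of mTORC1 and TFEB regulation held 9 that rose and 3 that fell. LAMTOR1, which anchors the Ragulator complex on the lysosome, MLST8 and RPTOR, 2 subunits of mTORC1, rose by 0.68, 0.68 and 0.62, of which MLST8 was no longer called, at 0.03, after GC correction. RRAGD, one of the small GTPases that recruit mTORC1 and TFEB, had 6.91, 7.77 and 8.38 FPKM in NC and 3.89, 3.58 and 4.22 FPKM in siPSCA. All siPSCA libraries lay far under those of NC, with a log2 fold change of -0.82 (adjusted p = 0.00132, limma), -0.77 without NC 3 and -0.62 after GC correction. FNIP1, which acts with folliculin on these GTPases, fell by 0.64 and was called both ways, and LAMTOR3 fell by 0.19 and turned to 0.09. Of 15 tested genes of tethering and positioning, 8 rose and 3 fell. BORCS6 of the BORC complex, VPS18, shared by the tethering complexes HOPS and CORVET, and PLEKHM1 rose by 0.86, 0.74 and 0.62. KXD1 of BORC fell by 0.32 on the log2 scale and was called both ways, and VPS41 of HOPS fell by 0.24 and turned to 0.05. KXD1 shares 29.5% of its exonic bases with the gene model AC005253.1 on the other strand, which held 306 reads against 7047.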

How the data were processed

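The authors deposited 1 table of FPKM values with gene length and position for all genes and 6 libraries. FPKM is reads scaled by exonic length and library size, and the gene positions and exonic lengths in the deposited table equal those of GENCODE release 29 on GRCh38. The libraries were made from total RNA with the NEBNext Ultra RNA kit and read as paired ends. Aligner, counter and the method for DEGs are not given in the sources used here. Values times gene length were whole multiples of 1 step (100% within 0.1 of a read), so reads were recovered.

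Groups follow the labels. With R 4.3.3 and limma 3.58.1, lmFit and eBayes with trend were run on log2(FPKM + 1), with group as the only term, for genes whose mean FPKM reached 1 (13796 genes), with Benjamini-Hochberg adjustment. With 3 libraries against 3 an exact permutation test cannot go below p = 0.1. The GC content is that of the longest transcript, and the trend on GC content and log2 length (splines with 5 degrees of freedom) was removed from each library (GC correction). Tables were made with pandas 2.3.3 and numpy 2.4.6 under Python 3.11.15, and plots with matplotlib 3.10.9. The fit was tested on simulated data. The alternatives were a pseudocount of 0.1, no FPKM minimum, TPM, quantile normalization, limma-voom on the recovered reads, a replicate block, the GC correction, also with the block, and each library left out.

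Members and lists were chosen with earlier results of these data known. Every member may be named. Given library by library are, in each role group, the most abundant member in NC and those with the largest rise and fall in log2 fold change, and for each other list up to 3 called genes with the largest rise and up to 3 with the largest fall. Some genes that this rule names are not reported here.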

Additional observations from a re-analysis of the deposited data

How the results depend on the processing

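The number of members called, 33 of 51, was 20 without a minimum FPKM and between 22 and 38 under the other planned settings, and it ranged from 18 to 34 when single libraries were left out, with 18 without siPSCA 1 and 20 without siPSCA 2. The median log2 fold change of the members, 0.23, stayed positive and was 0.27 with a pseudocount of 0.1, 0.30 on recovered reads with limma-voom and 0.15 after GC correction, with or without the replicate block, and 0.22 to 0.26 with single libraries left out. For the other lysosomal genes, 77 called became 45 after GC correction with the replicate block, and 45 to 72 with single libraries left out, with 45 without siPSCA 1 and 48 without siPSCA 2. Over all genes 7001 became 4643 after GC correction with the replicate block, and 4627 to 7425, with 4627 without siPSCA 1. The replicate block alone gave 33 members (29 higher, 4 lower), 68 other lysosomal genes and 6725 genes in all. No source used here says whether equal replicate numbers pair the libraries. The correlations of their deviations from the group means were 0.10, 0.01 and 0.13 for equal numbers. For unequal numbers they ran from -0.13 to 0.04, and siPSCA 2 correlated best with NC 1. With 3 libraries per group such weak correlations cannot settle whether the libraries were paired. After GC correction, with or without the replicate block, the sign turned for 3 called members and 4 of the other called genes named above, which are CTSZ (-0.053), MANBA (0.13), PSAP (-0.058), AP1G1 (0.060), AP3B1 (0.029), LAMTOR3 (0.094) and VPS41 (0.049). It also turned for 6 members that were not called (TPP1, LAMP2, SCARB2, TFEB, TFE3 and ATP6AP2) and for 11 in all of the other lysosomal genes called. Under that setting 43 of 51 members moved by more than their spread within groups. The cause of these changes was not tested. The median over all tested genes stayed between -0.03 and 0.04 under these settings. TFEB, ATP6V0C and HEXA, at about 1 FPKM, are limited by depth and by the pseudocount.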
